A study of Homo sapiens with 6 samples.

Results

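Dimethylarginine dimethylaminohydrolases (DDAH) and protein arginine methyltransferases (PRMT) stand at opposite ends of one pathway. PRMT enzymes transfer methyl groups from S-adenosylmethionine to arginine side chains of histones, splicing factors and other RNA-binding proteins. Breakdown of the modified proteins releases free methylarginines, of which the monomethyl and asymmetric dimethyl forms inhibit nitric oxide synthases, and DDAH enzymes hydrolyse these forms to citrulline. Type I PRMT enzymes make asymmetric dimethylarginine, type II enzymes make symmetric dimethylarginine, and the type III enzyme PRMT7 makes only monomethylarginine. The genes were taken by symbol, and 10 of the 11846 genes of the table belonged to them, namely DDAH1, DDAH2 and 8 PRMT genes (PRMT1, PRMT2, PRMT3, CARM1, PRMT5, PRMT6, PRMT7 and PRMT9). The family was chosen by the fold change and adjusted p of DDAH1 in an earlier fit of the same libraries, so the difference in DDAH1 is given as a description, and the other members were added by name.

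AGS cells, which derive from a gastric adenocarcinoma of human origin, were profiled by poly(A) RNA-seq in 3 libraries with ANXA2P1 knockdown and 3 control libraries. The knocked-down ANXA2P1 is a processed pseudogene of ANXA2, the gene of the membrane-binding protein annexin A2, and the comparison asked which mRNAs differed once the pseudogene was knocked down. The labels describe the knockdown cells as treated with ANXA2P1 knockdown and the control cells as having received scr-shRNA, a scrambled short hairpin RNA, and their protocol text names an ANXA2P1-shRNAp. The methods of the study instead describe CRISPR interference, in which dCas9-KRAB and guide RNAs repress a promoter, in both groups, with a scrambled guide in the control. Which means of knockdown these libraries carry therefore differs between the sources. The labels call the replicates biological without saying how the cultures were separated, so p-values measure the spread between these libraries. A preparation or sequencing batch that follows the groups cannot be told apart from the knockdown.

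Whole reads, recovered from the steps of the deposited values, totalled 19283824 to 21771015 per knockdown library and 21406249 to 23245395 per control library. No check of the labels by the knocked-down gene was made, as the level of ANXA2P1 was not analysed here. Epithelial markers were at high levels in both groups, with EPCAM at 241 FPKM in the knockdown and 237 FPKM in the control and KRT8 at 454 FPKM in the knockdown and 433 FPKM in the control, whereas the adhesion gene CDH1 averaged 2.08 FPKM in the knockdown and 2.06 FPKM in the control. Of the 6 stomach markers TFF1 averaged 3.15 FPKM in the knockdown and 2.27 FPKM in the control, PGC averaged 2.43 FPKM in the knockdown and 2.55 FPKM in the control, TFF2 was near 0 in both, and the other 3 were not analysed here. The one fibroblast or endothelial marker analysed, COL1A1, averaged 1.53 FPKM in the knockdown and 1.51 FPKM in the control. Of the 7 blood cell markers, LYZ lay between 175 and 343 FPKM in the knockdown and between 182 and 374 FPKM in the control. The other 6 blood cell markers were not analysed here, and LYZ alone does not tell which cell type it came from. Knockdown library 1 stood apart, with 660 genes more than 0.5 on the log2 scale away from the control mean, against 204 genes or fewer in each of the other knockdown libraries and 29 or fewer in each control library. The control mean contains each control library and no knockdown library, so the counts of the control libraries are lower in part by construction. The differences of DDAH1, DDAH2, PRMT1, PRMT3 and PRMT6 and of several related genes are also given without knockdown library 1. The limma fit without it called 255 genes at an adjusted p under 0.05, against 14 in the fit of all 6 libraries.

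DDAH1 was lower after ANXA2P1 knockdown, at 0.655 times its control level, while the other 9 genes did not pass the test. DDAH1 encodes an enzyme regarded as the main route of asymmetric dimethylarginine breakdown in mammals. Its GENCODE release 29 entry, ENSG00000153904.19, occupies chromosome 1, minus strand, positions 85318481 to 85578363 of hg38. Its levels were 25.0, 25.7 and 22.9 FPKM in knockdown libraries 1, 2 and 3, against 37.5, 37.9 and 37.1 FPKM in control libraries 1, 2 and 3. FPKM, the fragments per kilobase of gene scaled to library depth, can be compared between genes because it is scaled to length. The highest knockdown library stayed well below the lowest control library, and the control libraries lay close together. The SD of the control libraries was 1.04% of their mean, less than the counting error of 1.55% at the highest read count of DDAH1. A spread this small is therefore no measure of the error of the control level. In whole reads, DDAH1 had 2318, 2688 and 2363 in the knockdown libraries, against 4069, 3899 and 4138 in the control libraries. Of its exon bases, 8.38% overlap the non-coding gene AC092807.3 on the same strand, where strand cannot tell the reads apart.

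The mean level of DDAH1 was 24.6 ± 1.44 FPKM after knockdown and 37.5 ± 0.391 FPKM in the control (SD, n = 3 each). Its log2 fold change, knockdown minus control on log2(FPKM + 0.1), was -0.61, its SE was 0.0639 and it had a 95% interval of -0.76 to -0.46. The adjusted p was 0.0375 in limma (Benjamini-Hochberg over the 10813 genes whose mean FPKM reached 0.5). An earlier fit of DDAH1 in the same libraries led to the choice of the family, so this p is no independent test. DDAH1 ranked 3 of 10813 by p and 16 of 10813 from the most negative log2 fold change. In bulk RNA, fewer cells with the transcript and less transcript per cell cannot be told apart.

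The lower level of DDAH1 was present in every setting tried, but its adjusted p was not below 0.05 in each of them. The log2 fold change was negative in 15 of 15 settings beside the reported one and lay between -0.66 and -0.56. As the groups of DDAH1 do not overlap, leaving out or weighting libraries could not turn this sign. The count of settings is therefore no support for the difference. Without knockdown library 1 it was -0.62, with a limma adjusted p of 0.0022. The adjusted p in limma was 0.19 without knockdown library 2, and 0.287, 0.326 and 0.298 without control libraries 1, 2 and 3. It was 0.0493 without knockdown library 3 and 0.0921 when limma was run without its trend and robust options. Each fit without 1 library leaves that group with 2 libraries.

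**Figure D1:**
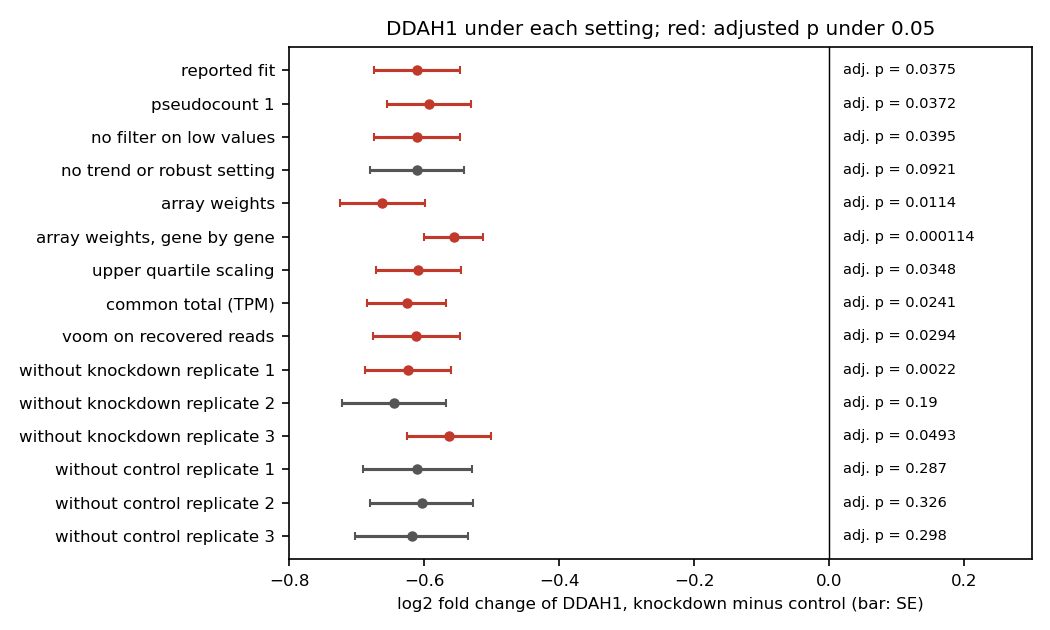
Log2 fold change of DDAH1 (horizontal axis, knockdown minus control, bars show the SE) under the reported fit and 14 other settings (rows, the fit with a replicate block not drawn), with the limma adjusted p at the right. Red points have an adjusted p under 0.05. Every point lies between -0.66 and -0.56, and grey points mark the settings in which the adjusted p was above the threshold.

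RefSeq lists 3 start sites for DDAH1, and their promoter windows (GRCh38.p14, 250 bases before to 50 bases after the start) are shown because the gene-level FPKM does not tell which start was in use. Capitals mark a match to one of 4 motifs searched on both strands, the E-box CACGTG, the GC box GGGCGG, the CCAAT box CCAAT and the TATA box TATAAA. A match on the other strand appears as its reverse complement, CCGCCC for the GC box. The windows are chr1:85578151-85578450, chr1:85465110-85465409 and chr1:85404457-85404756, all on the minus strand.
DDAH1 window 1: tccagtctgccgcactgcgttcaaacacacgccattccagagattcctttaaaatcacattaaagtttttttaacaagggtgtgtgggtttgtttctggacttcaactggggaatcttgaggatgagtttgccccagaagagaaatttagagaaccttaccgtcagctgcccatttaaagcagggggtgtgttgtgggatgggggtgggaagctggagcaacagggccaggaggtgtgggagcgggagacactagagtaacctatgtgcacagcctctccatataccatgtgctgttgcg
DDAH1 window 2: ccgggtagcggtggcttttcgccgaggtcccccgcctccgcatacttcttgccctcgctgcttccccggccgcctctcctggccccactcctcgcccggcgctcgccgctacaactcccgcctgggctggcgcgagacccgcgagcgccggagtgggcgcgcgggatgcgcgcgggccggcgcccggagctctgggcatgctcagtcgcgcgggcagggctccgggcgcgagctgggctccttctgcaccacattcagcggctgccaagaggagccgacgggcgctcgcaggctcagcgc
DDAH1 window 3: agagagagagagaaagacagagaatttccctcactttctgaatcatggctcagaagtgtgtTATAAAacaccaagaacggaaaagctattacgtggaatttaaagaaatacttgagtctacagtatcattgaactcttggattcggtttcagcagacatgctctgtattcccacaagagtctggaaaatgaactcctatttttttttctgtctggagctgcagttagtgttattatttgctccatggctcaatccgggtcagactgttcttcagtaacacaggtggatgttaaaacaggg

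Window 2 of DDAH1 had a GC content of 75.3% and 42 CG pairs, against a median of 58.7% and 14 pairs over 35116 RefSeq promoter windows of the same length, and held none of the 4 motifs. Windows 1 and 3 had a GC content of 49.7% and 40% with 6 and 4 CG pairs. The match in them was 1 TATAAA in window 3, a motif found in 11.5% of all windows. DDAH1 thus has a CG-dense start flanked on either side by a start with few CG pairs. The first window of DDAH2, at chr6:31730214-31730513 on the minus strand, is shown for contrast, since it carried 3 matches to the GC box.
DDAH2 window 1: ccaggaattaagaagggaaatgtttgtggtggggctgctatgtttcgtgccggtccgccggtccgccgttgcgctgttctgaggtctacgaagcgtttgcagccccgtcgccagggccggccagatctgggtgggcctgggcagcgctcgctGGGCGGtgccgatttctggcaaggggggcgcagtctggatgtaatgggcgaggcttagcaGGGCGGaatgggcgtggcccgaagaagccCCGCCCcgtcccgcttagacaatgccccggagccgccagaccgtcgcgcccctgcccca

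Over the 16 windows of the 10 genes, the GC box was in 11 windows, or 68.8%, against 45% of all windows. These windows are not all separate, as both windows of PRMT7 overlap and hold the same GC box matches. Windows 2 and 3 of DDAH2 also overlap, so the share counts some genes and bases more than once. The CCAAT box was in 2 windows, those of PRMT1 with 2 matches and PRMT5 with 3 matches, against 34.6% of all windows. CACGTG was in 1 window, that of PRMT3, against 7.26% of all windows. PRMT6 had a single window and none of the motifs. A match is a string of letters in a window, and binding of a factor was not measured here.

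DDAH2, the paralog of DDAH1, whose own activity on methylarginines is debated, did not follow it. It occupies chromosome 6, minus strand, positions 31727038 to 31730617. It had 62.3, 49.2 and 49.3 FPKM in knockdown libraries 1, 2 and 3, against 45.1, 50.3 and 50.4 FPKM in control libraries 1, 2 and 3. The groups overlapped, and knockdown library 1 was the highest of the 6. Its log2 fold change of 0.13 had an SE of 0.103 and a 95% interval of -0.10 to 0.37 (limma adjusted p = 0.685). Without knockdown library 1 it was 0.02, with a limma adjusted p of 0.911.

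The balance between the paralogs followed the difference in DDAH1, with no overlap between the groups. DDAH1 made up 28.6%, 34.3% and 31.8% of the summed DDAH level in knockdown libraries 1, 2 and 3, against 45.4%, 43.0% and 42.4% in control libraries 1, 2 and 3. The ratio of DDAH1 to DDAH2 averaged 0.463 ± 0.0611 after knockdown and 0.774 ± 0.0510 in the control (SD, n = 3 each). The summed DDAH level did overlap between the groups, with 87.3, 74.9 and 72.2 FPKM in the knockdown libraries and 82.7, 88.2 and 87.5 FPKM in the control libraries. Knockdown library 1 lay inside the control range through its high DDAH2. These sums and ratios share the DDAH1 values and carry no test of their own.

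**Figure D2:**
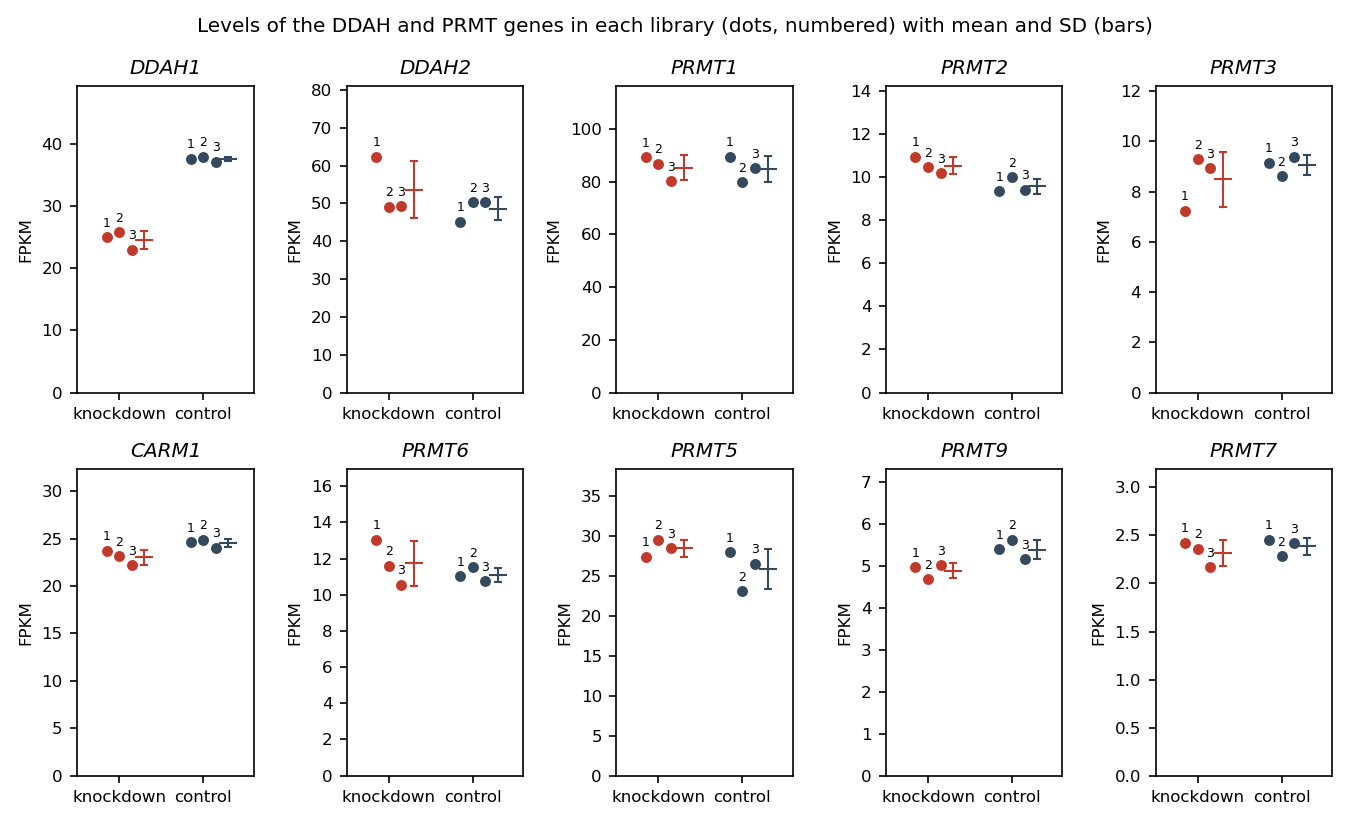
FPKM of each of the 10 genes (vertical axes, starting at 0) in the 3 knockdown and 3 control libraries, as numbered dots with the mean and SD as bars. DDAH1 has a clear gap between its groups, at 24.6 FPKM after knockdown and 37.5 FPKM in the control, and the highest DDAH2 value is knockdown library 1 at 62.3 FPKM.

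Among type I enzymes, PRMT1, which carries out most asymmetric dimethylation in mammalian cells, had the highest level of the 10 genes. Its levels were 89.3, 86.8 and 80.1 FPKM in the knockdown libraries and 89.5, 79.8 and 85.2 FPKM in the control libraries, and the groups overlapped throughout. The mean was 85.4 ± 4.73 FPKM after knockdown and 84.8 ± 4.85 FPKM in the control (SD, n = 3 each). On the log2 scale PRMT1 differed by 0.01, within a 95% interval of -0.16 to 0.18 (limma adjusted p = 0.971). The sign of this small difference turned under other settings, to -0.0039 on scaling to a common total and to -0.02 without knockdown library 1. Of the exon bases of PRMT1, 7.63% overlap ADM5 on the same strand and 3.57% the antisense gene AC011495.3 on the opposite strand.

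CARM1, a type I enzyme and transcriptional coactivator that methylates histone H3, had slightly lower values in the knockdown libraries. CARM1 had 23.7, 23.1 and 22.2 FPKM after knockdown, against 24.6, 24.9 and 24.0 FPKM in the control. The groups did not overlap, but the gap was small. Its log2 fold change of -0.09 had an SE of 0.0579 and a 95% interval of -0.22 to 0.04, which includes 0 (limma adjusted p = 0.624). Of the exon bases of CARM1, 19.9% overlap YIPF2 on the opposite strand, and whether counting used strand was not stated in the sources.

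PRMT2, a type I enzyme of weak activity with an SH3 domain, had higher values in every knockdown library. PRMT2 had 10.9, 10.4 and 10.2 FPKM after knockdown, against 9.34, 9.98 and 9.41 FPKM in the control, without overlap. For PRMT2 the log2 fold change of 0.13 had an SE of 0.0644, and its 95% interval ran from -0.01 to 0.28 (limma adjusted p = 0.505). It was the lowest unadjusted p among the 9 genes other than DDAH1, at 0.0693 in the same limma fit.

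PRMT3, a cytosolic type I enzyme with a zinc finger that methylates the ribosomal protein RPS2, had 7.24, 9.29 and 8.94 FPKM after knockdown and 9.15, 8.63 and 9.39 FPKM in the control. Only knockdown library 1 lay below the control range. Its log2 fold change was -0.10 (95% interval -0.33 to 0.13, limma adjusted p = 0.764), and it was 0.01 without that library. PRMT6, a nuclear type I enzyme that methylates histones, had 13.0, 11.6 and 10.5 FPKM after knockdown and 11.0, 11.5 and 10.7 FPKM in the control. Its highest value was again knockdown library 1, and the log2 fold change was 0.07 (95% interval -0.12 to 0.27, limma adjusted p = 0.796). Without that library it was -0.0036.

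Both type II enzymes were measured. PRMT5, the main maker of symmetric dimethylarginine, which works in a complex with WDR77, had 27.4, 29.5 and 28.4 FPKM after knockdown, against 27.9, 23.1 and 26.5 FPKM in the control. Knockdown library 1 fell within the control range and the other knockdown libraries lay above it. PRMT5 had a log2 fold change of 0.14, an SE of 0.0813 and a 95% interval of -0.05 to 0.33 (limma adjusted p = 0.586). The difference was 0.06 without control library 2 and 0.20 without control library 1. The antisense gene PRMT5-AS1 covers 27.1% of the exon bases of PRMT5, and reads of the pair cannot be told apart if strand was not used.

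PRMT9, a type II enzyme known for methylating the splicing factor SF3B2, had 4.97, 4.69 and 5.03 FPKM after knockdown, against 5.40, 5.63 and 5.16 FPKM in the control. The groups did not overlap. On the log2 scale PRMT9 differed by -0.14, with an SE of 0.0714 and a 95% interval of -0.30 to 0.03 (limma adjusted p = 0.536). These values rest on 397 to 504 reads per library. PRMT7, the type III enzyme, had the lowest FPKM of the 10 genes, with 2.42, 2.36 and 2.17 FPKM after knockdown and 2.45, 2.29 and 2.42 FPKM in the control. Its groups overlapped, and the log2 fold change was -0.04 (95% interval -0.24 to 0.16, limma adjusted p = 0.889).

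**Figure D3:**
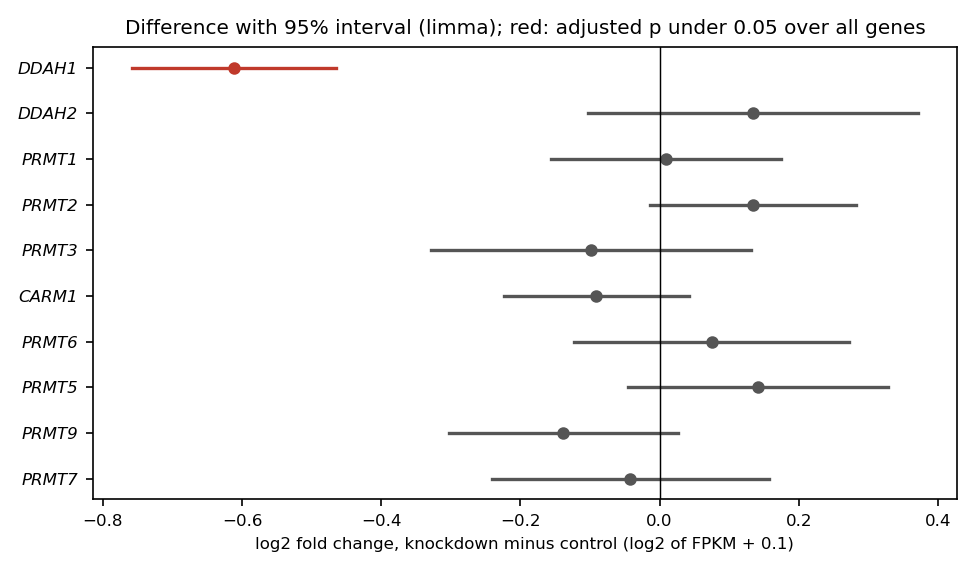
Log2 fold change of the 10 genes (horizontal axis, knockdown minus control, log2 of FPKM + 0.1) with the 95% interval of the limma fit. The interval of DDAH1, -0.76 to -0.46, lies wholly below 0, and the intervals of the other 9 genes include 0.

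Counted over the family, 1 of 10 genes was called lower at an adjusted p under 0.05 and 0 of 10 higher, against 0.111% lower and 0.0185% higher among the 10813 genes tested in limma. By fold change above 1.2 and unadjusted p under 0.05, the first of which the study names for these libraries and the second for its statistics in general, 1 of 10 genes was lower and 0 of 10 higher, against 3.35% lower and 1.54% higher among all tested genes. The lower gene was DDAH1 in both counts, and since it led to the choice of the family nothing is read from these shares. Groups did not overlap for 4 of 10 genes, DDAH1, CARM1 and PRMT9 on the lower side and PRMT2 on the higher side, against 19.0% of all tested genes in either direction. This count again includes DDAH1, so nothing is read from it either. The median log2 fold change of the 10 genes was -0.02, beside 0.01 over all tested genes, with 5 negative and 5 positive values. All 10 genes passed the filter on low values. For the other 9 genes the 95% intervals reached from -0.33 to 0.37 at their widest ends, so log2 differences beyond that range were outside every interval.

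The order of the levels was nearly the same in every library. By mean FPKM over the 6 libraries it ran PRMT1 (85.1), DDAH2 (51.1), DDAH1 (31.0), PRMT5 (27.1), CARM1 (23.8), PRMT6 (11.4), PRMT2 (10.0), PRMT3 (8.77), PRMT9 (5.14) and PRMT7 (2.35). DDAH1 and PRMT5 changed places between the groups, since DDAH1 was above PRMT5 in 0 of 3 knockdown libraries and in 3 of 3 control libraries. PRMT5 was above CARM1 in 3 of 3 knockdown and 2 of 3 control libraries. Every other neighbour kept its order in 6 of 6 libraries, though the ranges of PRMT5 and CARM1, of PRMT6 and PRMT2, and of PRMT2 and PRMT3, overlapped across libraries. This order depends on the gene lengths used. In control library 3 PRMT7 had 562 reads over 9458 exon bases, and PRMT9 had 496 reads over 4019. In the same library PRMT2 had 1740 reads over 8031 exon bases, and PRMT6 had 1133 reads over 4335.

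The summed level of the 8 PRMT genes was 174.8 ± 6.27 FPKM after knockdown and 172.7 ± 6.80 FPKM in the control (SD, n = 3 each), a difference smaller than the spread. PRMT1 supplied 48.8 ± 1.03% of the sum after knockdown and 49.1 ± 0.883% in the control. PRMT5 supplied 16.3 ± 0.872% after knockdown and 14.9 ± 0.894% in the control, and CARM1 supplied 13.2 ± 0.144% after knockdown and 14.2 ± 0.686% in the control. The type I genes together made up 79.6 ± 0.921% after knockdown and 80.5 ± 0.670% in the control, and the type II genes 19.1 ± 0.950% after knockdown and 18.1 ± 0.670% in the control. Shares of mRNA depend on the gene lengths used and do not measure enzyme activity.

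**Figure D4:**
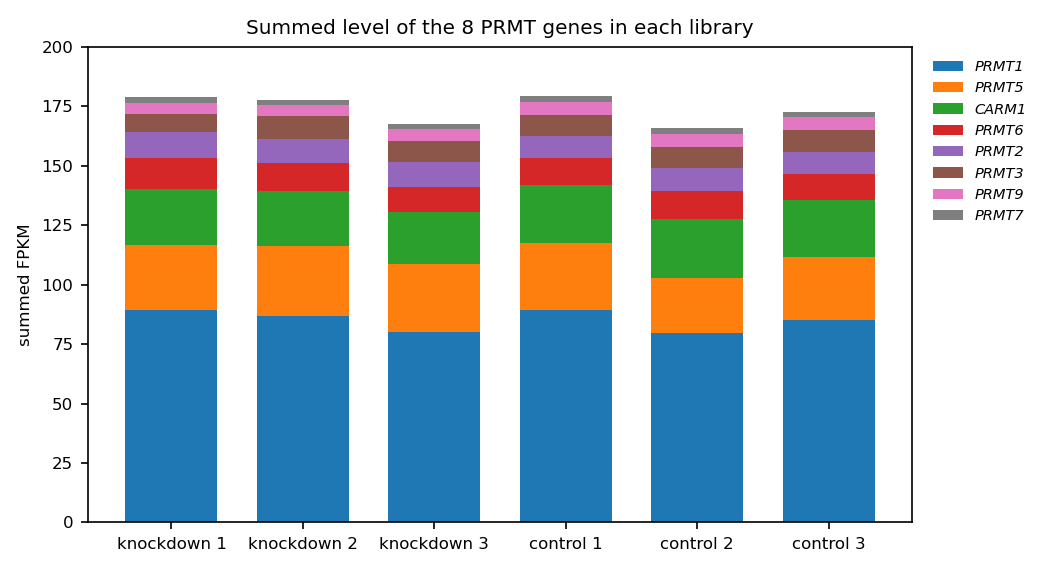
Summed FPKM of the 8 PRMT genes in each of the 6 libraries, stacked by gene (vertical axis from 0). The sums average 174.8 FPKM after knockdown and 172.7 FPKM in the control, and PRMT1 is the largest segment in each library.

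Related genes were taken from 5 lists of 100 genes, of which 80 were tested and 0 passed the adjusted p in limma, with 6 at an unadjusted p under 0.05, or 7.5%, against 10.6% of all tested genes. Their median log2 fold change was -0.05, beside 0.01 over all tested genes. The list of PRMT partners and other arginine methyltransferases had 9 tested genes with a median of -0.05. In it BTG2, an antiproliferative protein that binds PRMT1, had 85.6, 74.6 and 76.3 FPKM after knockdown, against 56.6, 60.0 and 52.7 FPKM in the control. The BTG2 groups did not overlap, and a log2 fold change of 0.48 (SE 0.0788) came with a limma adjusted p of 0.0693, just above the threshold. Without knockdown library 1 the log2 fold change of BTG2 was 0.42, with a limma adjusted p of 0.0126 in the fit that called 255 genes. Leaving out any of the other 5 libraries gave 0.43 to 0.53, with limma adjusted p-values of 0.0932 to 0.417. WDR77, the partner of PRMT5, had a mean of 14.3 ± 0.775 FPKM after knockdown and 12.9 ± 0.479 FPKM in the control (limma adjusted p = 0.487). The ratio of PRMT5 to WDR77 was 1.99 ± 0.0342 after knockdown and 2.0 ± 0.12 in the control. CHTOP, a chromatin target of PRMT1, averaged 24.4 FPKM after knockdown and 26.3 FPKM in the control (limma adjusted p = 0.554).

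Among 8 tested readers and removers of methylarginine the median was 0.03. JMJD6, an oxygenase for which arginine demethylation has been proposed, averaged 5.20 ± 0.346 FPKM after knockdown and 4.43 ± 0.244 FPKM in the control (limma adjusted p = 0.379). SND1, a Tudor domain protein that binds symmetric dimethylarginine, averaged 57.4 ± 2.73 FPKM after knockdown and 52.5 ± 0.982 FPKM in the control (limma adjusted p = 0.51). AKAP1, another Tudor domain protein, had a log2 fold change of 0.03, and its sign turned without knockdown library 2.

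Of 33 methylated substrates, 26 had a negative and 7 a positive log2 fold change, with a median of -0.06, beside 0.01 over all tested genes. The signs were not tested as a set. The summed substrate level overlapped between the groups, with 3018, 3016 and 2877 FPKM in the knockdown libraries and 3166, 2953 and 3143 FPKM in the control libraries. HNRNPUL1, an RNA-binding protein with methylated arginines, had 86.6, 89.7 and 83.4 FPKM after knockdown, against 106.0, 101.6 and 109.0 FPKM in the control. The HNRNPUL1 groups did not overlap, and a log2 fold change of -0.29 (SE 0.0626) came with a limma adjusted p of 0.137. Without knockdown library 1 it was -0.29, with a limma adjusted p of 0.0444 in the fit that called 255 genes, and without any of the other 5 libraries the limma adjusted p was 0.167 to 0.607. HNRNPA1, a splicing regulator, averaged 202.3 ± 18.9 FPKM after knockdown and 222.7 ± 2.76 FPKM in the control (limma adjusted p = 0.575), and its log2 fold change of -0.14 was -0.07 without knockdown library 1. For MRE11, a nuclease of DNA repair, the difference was -0.20 on the log2 scale (limma adjusted p = 0.612), with -0.06 without knockdown library 1 and -0.31 without knockdown library 3. RPS2, the ribosomal substrate of PRMT3, averaged 1051 ± 139.4 FPKM after knockdown and 1056 ± 53.3 FPKM in the control.

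In the methyl donor cycle, which makes S-adenosylmethionine and recycles its product, 13 genes were tested, with 11 negative and 2 positive log2 fold changes. Their median was -0.03, beside 0.01 over all tested genes, and the signs were again not tested as a set. MTRR, which keeps methionine synthase active, differed by -0.17 on the log2 scale (limma adjusted p = 0.441). AHCY, which removes S-adenosylhomocysteine, averaged 91.7 ± 7.39 FPKM after knockdown and 92.3 ± 3.43 FPKM in the control. SMS, spermine synthase, averaged 69.5 ± 0.716 FPKM after knockdown and 71.1 ± 2.61 FPKM in the control.

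In the list of methylarginine, arginine and nitric oxide genes 17 were tested, with a median log2 fold change of -0.06, and 7 of the 26 listed genes were not analysed here. SLC7A1, the cationic amino acid transporter that imports arginine, had 40.4, 32.2 and 32.8 FPKM after knockdown, against 40.9, 48.0 and 44.2 FPKM in the control. The SLC7A1 groups did not overlap, though knockdown library 1 lay close to control library 1. For SLC7A1 the log2 fold change was -0.34 (SE 0.102, limma adjusted p = 0.278), and without knockdown library 1 it was -0.45 with a limma adjusted p of 0.0127 in the fit that called 255 genes. Without any of the other 5 libraries SLC7A1 had -0.40 to -0.28, with limma adjusted p-values of 0.264 to 0.709. ASS1, which makes argininosuccinate from citrulline, was low, with 1.13, 0.509 and 0.428 FPKM after knockdown and 0.561, 1.67 and 0.791 FPKM in the control. Its log2 fold change of -0.47 had an SE of 0.411 (limma adjusted p = 0.731) and ran from -0.84 without knockdown library 1 to -0.06 without control library 2. ODC1, which makes putrescine from ornithine, averaged 157.0 ± 1.22 FPKM after knockdown and 153.2 ± 9.22 FPKM in the control, and OAT, ornithine aminotransferase, averaged 139.9 ± 5.40 FPKM after knockdown and 147.0 ± 1.25 FPKM in the control.

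**Figure D5:**
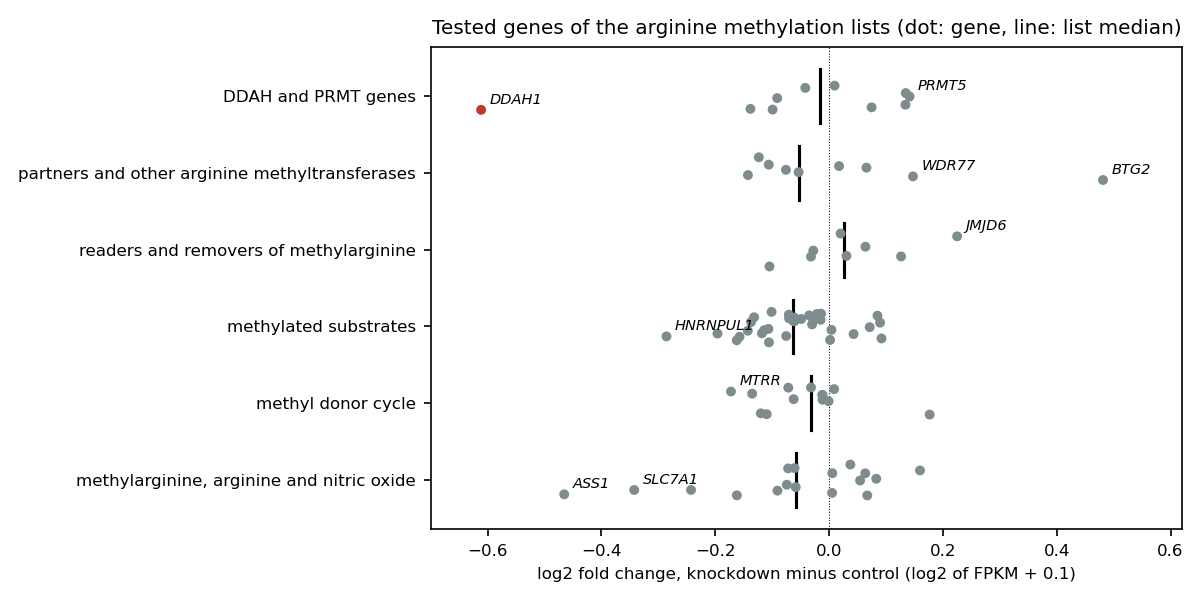
Log2 fold change (horizontal axis, knockdown minus control) of every tested gene of the family and of the 5 related lists, 1 dot per gene and a line at each list's median. DDAH1 at -0.61 is the one red dot, with a limma adjusted p under 0.05, and BTG2 at 0.48 is the highest dot of the related lists.

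The genes whose pattern over the 6 libraries was nearest to that of DDAH1 were CBFB, IFNGR1, MYO1D, CCND1 and VANGL1, by the root mean square difference of log2(FPKM + 0.1) from the control mean. The distances were 0.0427, 0.0545, 0.0568, 0.0635 and 0.0637 on the log2 scale. CCND1, which encodes cyclin D1, had 54.6, 56.2 and 57.0 FPKM after knockdown, against 85.0, 84.7 and 83.0 FPKM in the control. CBFB, a subunit of the core binding factor, had 15.8, 17.5 and 15.2 FPKM after knockdown, against 23.9, 24.0 and 24.2 FPKM in the control. Such genes were picked for a likeness that includes the difference between the groups, so their fold changes are a description. Of the other members of the family the closest was PRMT9 at 0.344 and rank 1201, and PRMT5 at 0.542 was the farthest. Because the distance includes the group difference of DDAH1, a member without such a difference could not be near.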

How the data were processed

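Poly(A) RNA of AGS cells was sequenced in 3 knockdown and 3 control libraries, grouped by the treatment label. The authors used a library kit that U-labels the second strand, and the submitters' processing notes name Bowtie2, TopHat and hg38 without versions. What counted the reads, on which annotation and with which strand setting and filter, was not given in the sources used here. FPKM values of 11846 genes, scaled by the authors to gene length and library reads, are the deposited unit. Overlapping genes can share reads in such a table. Beside the overlaps given above, 1.46% of the exon bases of DDAH2 overlap CLIC1 (same strand) and 2.53% of PRMT7 overlap SMPD3 (opposite strand).

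The steps of the FPKM values gave back whole reads (tolerance 0.001 to 0.05 reads) for 11846 of 11846 genes, or 100%. For 195 genes, CARM1 included, a common factor lost in this step was restored from the exon length. A gene had a median of 819 reads per library. Same-group replicates differed by more than sampling noise. The chi-square per degree of freedom was 7.80 to 36.5 between knockdown libraries and 2.88 to 10.4 between control libraries. The reported fit used the same variance for both groups.

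Values were fitted with limma 3.58.1 in R 4.3.3 (lmFit, eBayes with trend and robust) on log2(FPKM + 0.1), a scale that understates the change of low genes, over the 10813 genes whose mean FPKM reached 0.5. P-values were two-sided and adjusted by Benjamini-Hochberg at 0.05. The fit was tested on simulated data before use. Alternatives were a pseudocount of 1, no filter, limma without trend and robust, array weights, upper quartile scaling, a common total (TPM), a replicate block, voom on the recovered reads (which called 21 genes) and leaving out each library. Array weights estimated gene by gene were added after seeing the data.

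The members and lists were chosen with earlier results of these data known. Named genes were every member, of each related list those past the adjusted p, the 2 with the largest absolute log2 fold change and the 2 with the highest mean, and the 5 genes nearest to DDAH1. One gene that the rule names is not reported here. Gene positions are from GENCODE release 29, which matched 97.8% of symbols, and promoter sequences from RefSeq, which matched all 10 members.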

Additional observations from a re-analysis of the deposited data

How the results depend on the processing

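The log2 fold change of DDAH1 stayed negative in all 15 alternatives, a sign that leaving out or weighting libraries could not turn. Its limma adjusted p was under 0.05 in 9 of them, both fits with array weights included. Without trend and robust options it was -0.61 with an adjusted p of 0.0921, and 0 genes were called in all, with 1168 at an unadjusted p under 0.05 (voom called 21), so 0 members were called. Deviations of same-numbered libraries from their group means had negative correlations (-0.338, -0.468 and -0.116). With 3 libraries per group these values are not independent of each other, so they cannot tell whether the cultures were paired. With the replicate block DDAH1 was -0.61 with a limma adjusted p of 0.0967, 1 gene was called, 0 of them a member. Leaving out 1 library gave -0.65 to -0.56 for DDAH1, 0 to 1 members and 0 to 255 genes called against 14 in the reported fit, the 255 without knockdown library 1, 5 without knockdown library 3 and 0 without any of the other 4. It gave 0 to 1 called genes for the partner list, 0 to 1 for substrates and 0 to 2 for the arginine and nitric oxide list.

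Array weights depended on how they were estimated. The default estimate stopped before it converged, gave knockdown library 2 a weight of 0.0149 and called 14 genes. The gene-by-gene estimate gave that library a weight of 3.75 and called 1195 genes, with 2 partner genes, 1 reader or remover, 1 substrate and 2 arginine and nitric oxide genes. The calls of the reported fit rest on neither estimate, but both are among the settings counted for DDAH1. Its log2 fold change was -0.66 with default and -0.56 with gene-by-gene weights, the ends of its range over the settings. The limma adjusted p-values were 0.0114 and 0.000114, in that order. The 9 members other than DDAH1 passed in 0 of 135 combinations with a setting, with a lowest limma adjusted p of 0.0664.

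Signs of values near 0 turned. PRMT1 was -0.047 with default array weights and -0.0039 under the common total, and AHCY was 0.0032 with gene-by-gene weights. Leaving out 1 library gave -0.033 to 0.055 for PRMT1, -0.167 to 0.0098 for PRMT3, -0.0036 to 0.148 for PRMT6, -0.073 to 0.0035 for PRMT7, -0.055 to 0.056 for AHCY, -0.0017 to 0.063 for AKAP1 and -0.113 to 0.077 for RPS2. Without a change of sign, it gave 0.02 to 0.19 for DDAH2, 0.06 to 0.20 for PRMT5, -0.31 to -0.06 for MRE11 and -0.84 to -0.06 for ASS1. The cause of the other changes was not tested. The common total moved the median of all genes to -0.0033, against 0.01 in the reported fit. Depth limited PRMT7 and PRMT9 most, with 562 reads or fewer per library.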
